A study of Mus musculus with 4 samples.

Results

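The fatty acid handling genes described here are 9 genes of 3 steps that a long-chain fatty acid passes on its way into a cell: the cytosolic binding proteins Fabp1 and Fabp2, the uptake proteins Cd36, Slc27a1, Slc27a2 and Slc27a4, and the acyl-CoA synthetases Acsl1, Acsl3 and Acsl5. They were taken by name from the 27998 genes of the count matrix, with earlier results of these data known, and all 9 had UMIs. They were followed in 15053 small intestinal cells of mice kept on a ketogenic diet, which is rich in fat and very low in carbohydrate, or on a control diet. Ketogenic libraries 1 and 2 held 3194 and 3414 cells, and control libraries 1 and 2 held 3549 and 4896 cells. Every cell is listed as male and carries 1 of 7 epithelial type names. The donor column repeats the library name, so the number of animals behind a library is unknown, and the p-values refer to the spread between libraries, part of which may be technical. The labels used here give no strain, genotype, age, diet composition or time on the diet.

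Most long-chain fatty acids of a meal are absorbed by enterocytes, the columnar cells of the villus. CD36 binds fatty acids at the cell surface, and the fatty acid transport proteins of the Slc27a family combine uptake with the activity of an acyl-CoA synthetase. Inside the cell FABP1, the liver type, and FABP2, the intestinal type, carry the poorly soluble fatty acid through the cytosol, and long-chain acyl-CoA synthetases join it to coenzyme A, which traps it and readies it for storage or oxidation. Fatty acids are also ligands of the PPAR receptors, and Fabp1 is a known PPAR target gene with a response element described in the rat promoter.

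That element is the reason for printing the Fabp1 promoter, since Fabp1 carried the largest diet effect of the 9 genes. The motif searched was AGGNCA followed, after 1 base of any kind (N), by a second AGGNCA, on both strands, in windows from 250 bases before to 50 bases after each RefSeq start, and it was chosen with the Fabp1 element known. All 9 genes had a window in the RefSeq promoter table (GRCm38.p6), 12 windows in all. One window held a match, that of Fabp1, on the strand opposite to the gene, where it reads AGGCCATAGGTCA. The match spans chr6:71199812-71199824, which is -67 to -55 from the RefSeq start and 15 to 3 bases before the GENCODE M21 start. Of 32851 promoter windows of all genes, 125 (0.381%) held the motif. The Fabp1 bases chr6:71199629-71199826 (plus strand, up to the GENCODE start, with the match in capitals) are set here beside the Fabp2 bases chr3:122894822-122895071 (plus strand, with no match and so no capitals).
Fabp1: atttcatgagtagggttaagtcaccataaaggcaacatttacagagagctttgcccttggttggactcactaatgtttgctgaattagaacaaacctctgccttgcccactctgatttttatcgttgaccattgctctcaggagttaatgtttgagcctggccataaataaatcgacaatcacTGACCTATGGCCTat
Fabp2: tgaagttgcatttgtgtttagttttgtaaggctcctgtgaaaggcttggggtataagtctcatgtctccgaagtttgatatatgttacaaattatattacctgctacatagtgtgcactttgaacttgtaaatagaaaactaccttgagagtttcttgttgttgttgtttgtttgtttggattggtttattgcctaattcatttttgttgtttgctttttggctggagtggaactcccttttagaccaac
A match describes the letters and not a bound site, and no factor binding was measured here.

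Levels are given as CPM, the UMIs (unique molecular identifiers, each 1 captured transcript) of a gene per 1000000 UMIs of the same library and cell type. The 2 ketogenic libraries held 27316428 and 30292457 UMIs, and the 2 control libraries 29186729 and 34106639. Diet effects are log2 fold changes, ketogenic over control, with their SE, from edgeR's quasi-likelihood test on UMI sums of 2 libraries per diet. A gene is called when its p adjusted over all genes tested is under 0.05. Where diets are said not to overlap, this is description only. Of the 6 ways to split the libraries 2 against 2, a share of 0.33 gives it for any gene. The share of all genes without overlap was not counted. The deposited type names were checked against marker genes: the markers highest in their own type in all 4 libraries were 5 of 6 for stem cells, 5 of 6 for transit amplifying cells, 7 of 10 for enterocytes, 4 of 7 for goblet cells and 7 of 7 each for Paneth, enteroendocrine and tuft cells. Control library 1 stood apart in its enterocytes: Fabp6, a bile acid binding protein of the ileum, stood at 120 and 125 CPM in ketogenic enterocytes and at 277 and 56.3 CPM in control enterocytes, and Krt20, a villus tip gene, at 49.8 and 40.7 CPM against 172 and 60.0 CPM. From 10 to 26 cell barcodes were shared between any 2 libraries.

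Fabp1 rose under the ketogenic diet in stem, transit amplifying, goblet and enteroendocrine cells, and Fabp2 rose in stem and transit amplifying cells. None of the 7 uptake and synthetase genes was called in any cell type by edgeR. Of the 8 members tested in stem cells 2 were called, both higher, where 0.336% of 9514 genes were called in either direction. In transit amplifying cells 2 of 8 were called (0.715% of 10069 genes), in goblet cells 1 of 8 (0.521% of 9984 genes) and in enteroendocrine cells 1 of 5 (0.0582% of 6877 genes). In enterocytes 0 of 9 members were called (0.18% of 11697 genes), in Paneth cells 0 of 3 (0.44% of 2957 genes), in tuft cells 0 of 6 (0.0144% of 6963 genes) and in all cells together 0 of 9 (0.172% of 12784 genes). At an unadjusted p under 0.05 those counts of 0 became 5 in enterocytes (9.91% of all genes), 1 in Paneth cells (7.68%), 0 in tuft cells (5.34%) and 5 in all cells (10.95%). DESeq2 called 2 members in enterocytes (1.53% of its genes) and 2 in all cells (1.79%), Fabp1 and Fabp2 both times, with 0 in Paneth cells (1.22%) and 0 in tuft cells (0.0287%). The median log2 fold change of the members tested was 0.35 in stem cells, 0.52 in transit amplifying cells and 0.46 in enterocytes, beside medians over all genes tested of 0.00, 0.00 and 0.02. In goblet, Paneth, enteroendocrine and tuft cells it was 0.22, 0.27, 0.18 and 0.10, beside 0.001, -0.009, 0.004 and -0.004.

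**Figure D1:**
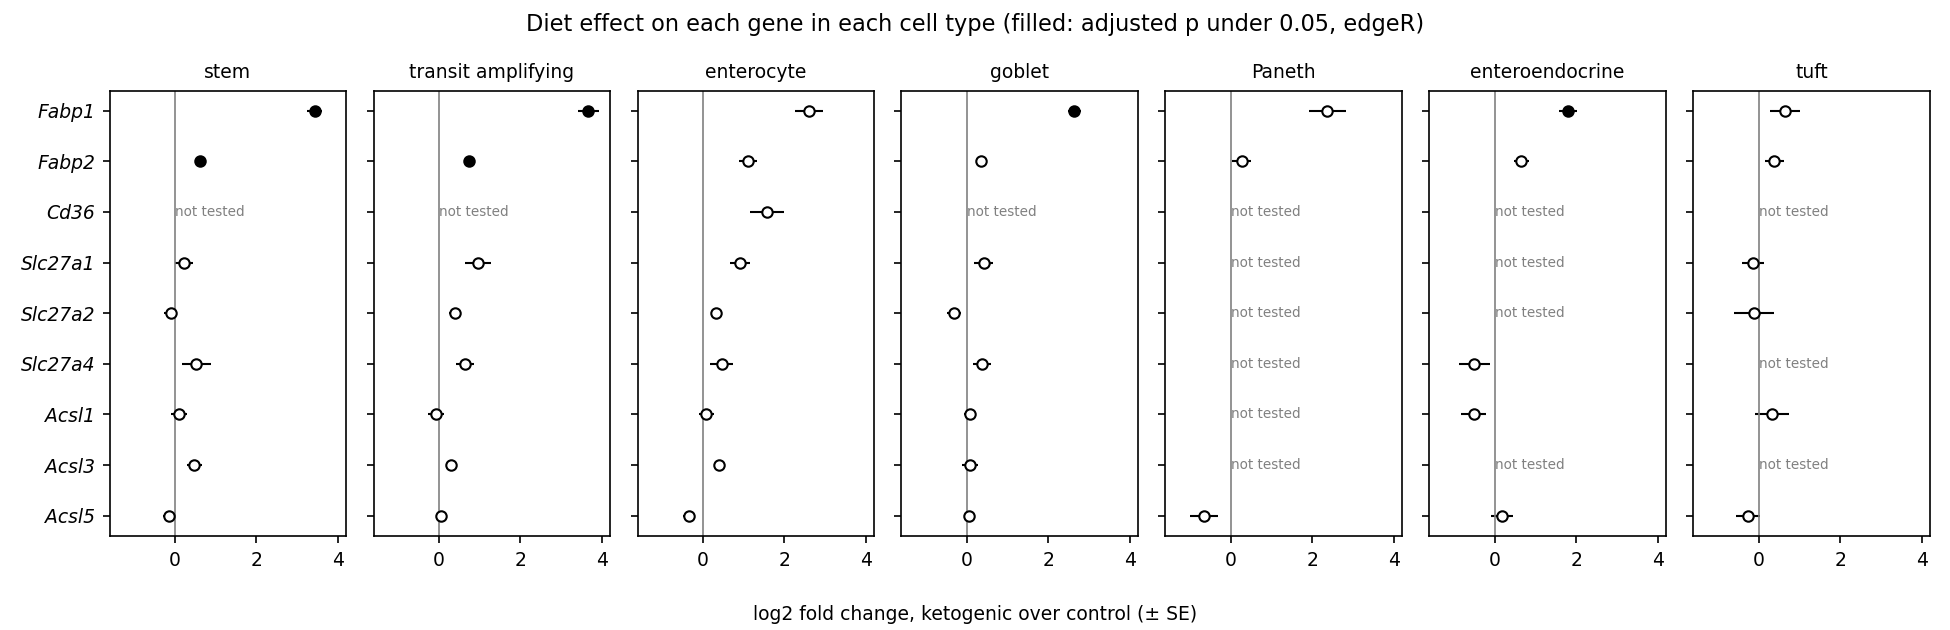
Log2 fold change, ketogenic over control, of each of the 9 genes (rows) in each cell type (panels), from sums of 2 libraries per diet. Bars are the SE of the edgeR estimate, filled points have an adjusted p under 0.05, and genes under the count filter are marked as not tested. The filled points are Fabp1 in stem, transit amplifying, goblet and enteroendocrine cells and Fabp2 in stem and transit amplifying cells.

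Fabp1 (chromosome 6, 71199827 to 71205023, plus strand) was at its highest in enterocytes, with 6562 and 3209 CPM in ketogenic libraries 1 and 2 and 777 and 861 CPM in control libraries 1 and 2. Every ketogenic library lay above every control library, and ketogenic library 1 was far above ketogenic library 2. The log2 fold change of 2.60 ± 0.34 in enterocytes missed the threshold by a little (edgeR adjusted p = 0.0518). It passed in 10 of 12 alternative settings, with values from 1.92 to 3.08 and adjusted p from 1.695e-06 to 0.0994.

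Transit amplifying cells, the dividing progeny of stem cells, came next in the order of mean Fabp1 levels and stood above stem cells in each of the 4 libraries, while in control library 2 tuft cells stood above both. Transit amplifying cells held 1973 and 1032 CPM in ketogenic libraries and 109 and 131 CPM in control libraries. The diets were far apart, and Fabp1 rose 12.7-fold (log2 fold change 3.67 ± 0.26, edgeR adjusted p = 1.27e-05).

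In stem cells, which renew the epithelium from the crypt base, Fabp1 stood at 751.5 and 468 CPM in ketogenic libraries and at 50.5 and 60.7 CPM in control libraries. Again the groups were well separated, with a 10.8-fold rise (log2 fold change 3.44 ± 0.19, edgeR adjusted p = 1.13e-11). The stem cells of ketogenic library 1 had a median of 16.2% mitochondrial UMIs, against 8.52% in ketogenic library 2 and 11.5% and 8.26% in control libraries 1 and 2. With only cells under 20% mitochondrial UMIs, and in the 10 other alternatives, Fabp1 remained called in stem cells, with log2 fold changes from 3.04 to 3.79.

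Among the secretory cells Fabp1 was lower than in enterocytes of the same library. Goblet cells, which make mucus, held 362 and 256 CPM in ketogenic libraries and 52.7 and 46.0 CPM in control libraries (log2 fold change 2.64 ± 0.15, edgeR adjusted p = 1.09e-07). Enteroendocrine cells, which release gut hormones, held 285 and 198 CPM in ketogenic libraries and 68.3 and 71.9 CPM in control libraries (1.81 ± 0.22, edgeR adjusted p = 0.00124). The enteroendocrine levels rested on 352 and 118 UMIs in ketogenic libraries and on 26 and 54 UMIs in control libraries. Of these, 5 cells held 22.4% and 53.4% in ketogenic libraries and 69.2% and 61.1% in control libraries. In goblet and enteroendocrine cells every ketogenic library was above every control library, and Fabp1 rose in both. Whether the Fabp1 UMIs of these types came from the cells' own RNA or from free enterocyte RNA cannot be told apart here. Paneth cells, which secrete antimicrobial peptides, held 342 and 145 CPM against 55.3 and 82.7 CPM, on counts of 180 and 50 UMIs against 16 and 25. There too the diets did not overlap, but the change of 2.37 ± 0.46 was not called (edgeR adjusted p = 0.0617), and it was called in 5 of 11 alternatives. The 7 Paneth markers summed to 157000 to 215300 CPM in ketogenic Paneth cells and to 47590 to 84380 CPM in control Paneth cells, and differences in plain CPM and on the TMM scale of the fits are not alike there. The part of this in the Paneth results was not tested.

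Tuft cells, the chemosensory cells of the epithelium, were the type in which the Fabp1 levels of the diets overlapped. They held 392 and 306 CPM in ketogenic libraries and 82.4 and 343 CPM in control libraries, so that control library 2 lay between the ketogenic libraries. Of the 243 Fabp1 UMIs in tuft cells of control library 2, 79.8% came from 5 cells, 95 of them from 1 cell. The log2 fold change of 0.65 ± 0.36 was not called (edgeR adjusted p = 0.889). Without control library 2 it was 2.07 and called, and without control library 1 it was 0.00. In the order of Fabp1 levels by type, stem, tuft, goblet, Paneth and enteroendocrine cells changed places between libraries. Stem cells were above these secretory types in both ketogenic libraries. In control library 1 stem cells were lowest at 50.5 CPM, with goblet, Paneth and enteroendocrine cells at 52.7, 55.3 and 68.3 CPM. In control library 2 stem cells (60.7 CPM) were above goblet cells (46.0 CPM) but below Paneth (82.7 CPM) and enteroendocrine cells (71.9 CPM).

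**Figure D2:**
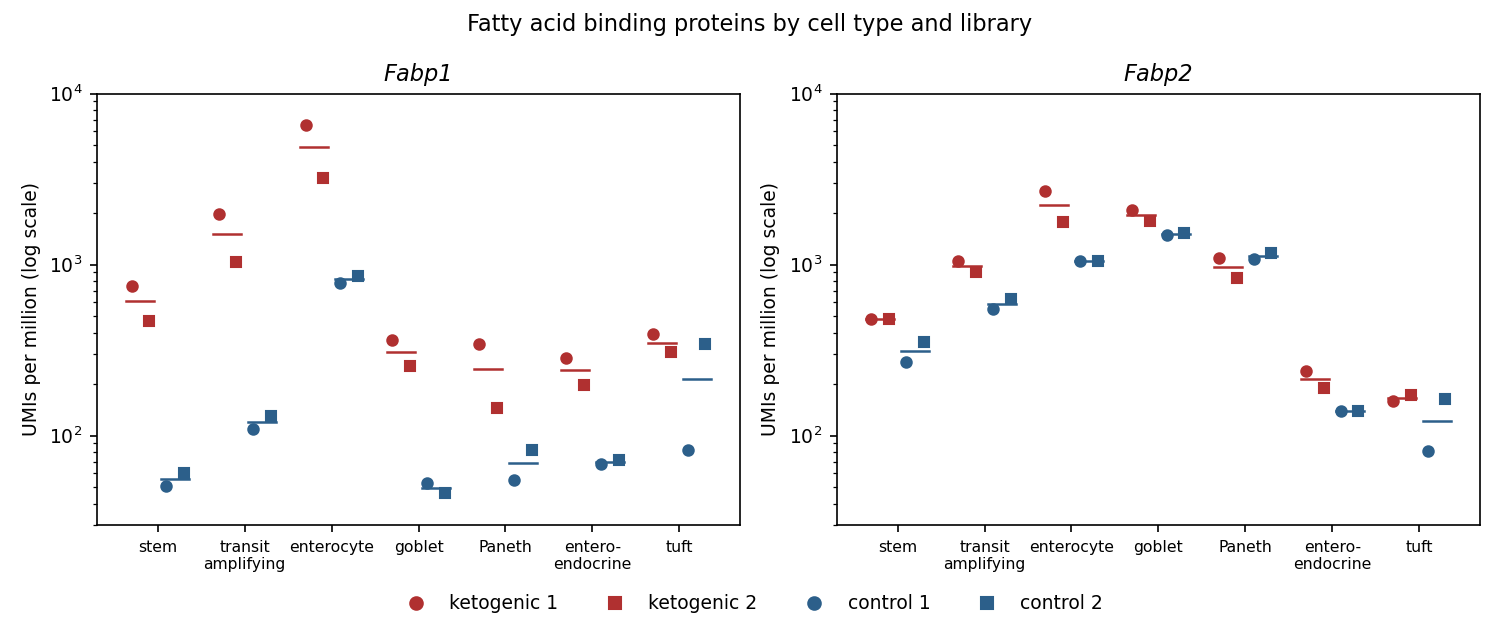
Levels of Fabp1 (left) and Fabp2 (right) in CPM of the same library and cell type, on a log scale, in each library, with lines at the mean of each diet. Ketogenic Fabp1 points lie above the control points in every cell type but tuft cells, and Fabp2 is near or above 1000 in goblet and enterocyte sums of both diets.

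The Fabp1 effect differed in size between cell types when the difference itself was tested, in a fit of each type together with enterocytes with library as a block. Over enterocytes it was larger by 0.94 ± 0.14 on the log2 scale in stem cells (edgeR adjusted p = 4.05e-05, with 0.259% of genes called) and by 1.11 ± 0.10 in transit amplifying cells (edgeR adjusted p = 1.99e-08, with 0.0871% of genes called). In tuft cells it was smaller, by -1.73 ± 0.21 (edgeR adjusted p = 1.30e-12, with 0.203% of genes called). The transit amplifying difference was called in all 6 alternatives, the stem difference in all but the fit without ketogenic library 2 (0.71, adjusted p = 0.0687). The tuft difference was lost without control library 2 (-0.51) and without ketogenic library 1 (-1.29). For goblet, Paneth and enteroendocrine cells the difference in Fabp1 was 0.14, -0.34 and -0.76 and was not called (0.22% of genes were called in the enteroendocrine fit).

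The share of cells with a Fabp1 UMI was compared after thinning every cell to 2000 UMIs, which left out 205 shallower cells of control library 2 and 0 of the other 3 libraries. In enterocytes 83.3% and 65.2% of ketogenic cells and 33.4% and 31.5% of control cells kept a Fabp1 UMI (unthinned 96.1% and 85.3% against 52.7% and 49.6%). In transit amplifying cells the shares were 79.4% and 57.0% against 16.4% and 16.6% (unthinned 96.4% and 82.3% against 34.0% and 41.3%), and in stem cells 65.4% and 37.8% against 11.5% and 9.87% (unthinned 88.2% and 64.8% against 20.2% and 22.8%). The 5 cells with the most Fabp1 UMIs held 16.2% and 27.2% of the Fabp1 UMIs of stem cells in ketogenic libraries and 34.0% and 27.2% in control libraries. In enterocytes they held 4.44% and 9.09% in ketogenic libraries and 11.98% and 16.94% in control libraries.

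Free RNA from lysed enterocytes can give UMIs in cells that do not make a transcript, and tuft cells were taken as a reference for that background. There the thinned Fabp1 share was 39.7% and 33.3% in ketogenic libraries and 12.7% and 16.4% in control libraries, with median depths of 8138 and 7604.5 UMIs per tuft cell in ketogenic libraries and 7492 and 5557 in control libraries, against 5820.5 and 7722 and against 5646 and 6294 per stem cell. The share in transit amplifying cells was above that in tuft cells in both ketogenic libraries, and the share in stem cells was above it beyond the 95% exact binomial intervals in ketogenic library 1 (59.2% to 71.2% in stem, 30.7% to 49.2% in tuft) but not in ketogenic library 2 (33.4% to 42.4% in stem, 24.6% to 43.1% in tuft). In control libraries the stem and transit amplifying shares were not above the tuft share beyond the intervals. Nor were the goblet shares of 33.2% and 27.3% in ketogenic libraries and 6.30% and 6.56% in control libraries, or the enteroendocrine shares of 37.6% and 23.2% in ketogenic libraries and 11.1% and 6.99% in control libraries. In control library 2 the goblet share (4.64% to 8.96%) even lay below the tuft share (10.2% to 24.4%) beyond the intervals. Tuft cells were thus not the lowest type there. A share not above theirs is therefore not shown to be background, and this measure does not tell own RNA from free RNA.

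**Figure D3:**
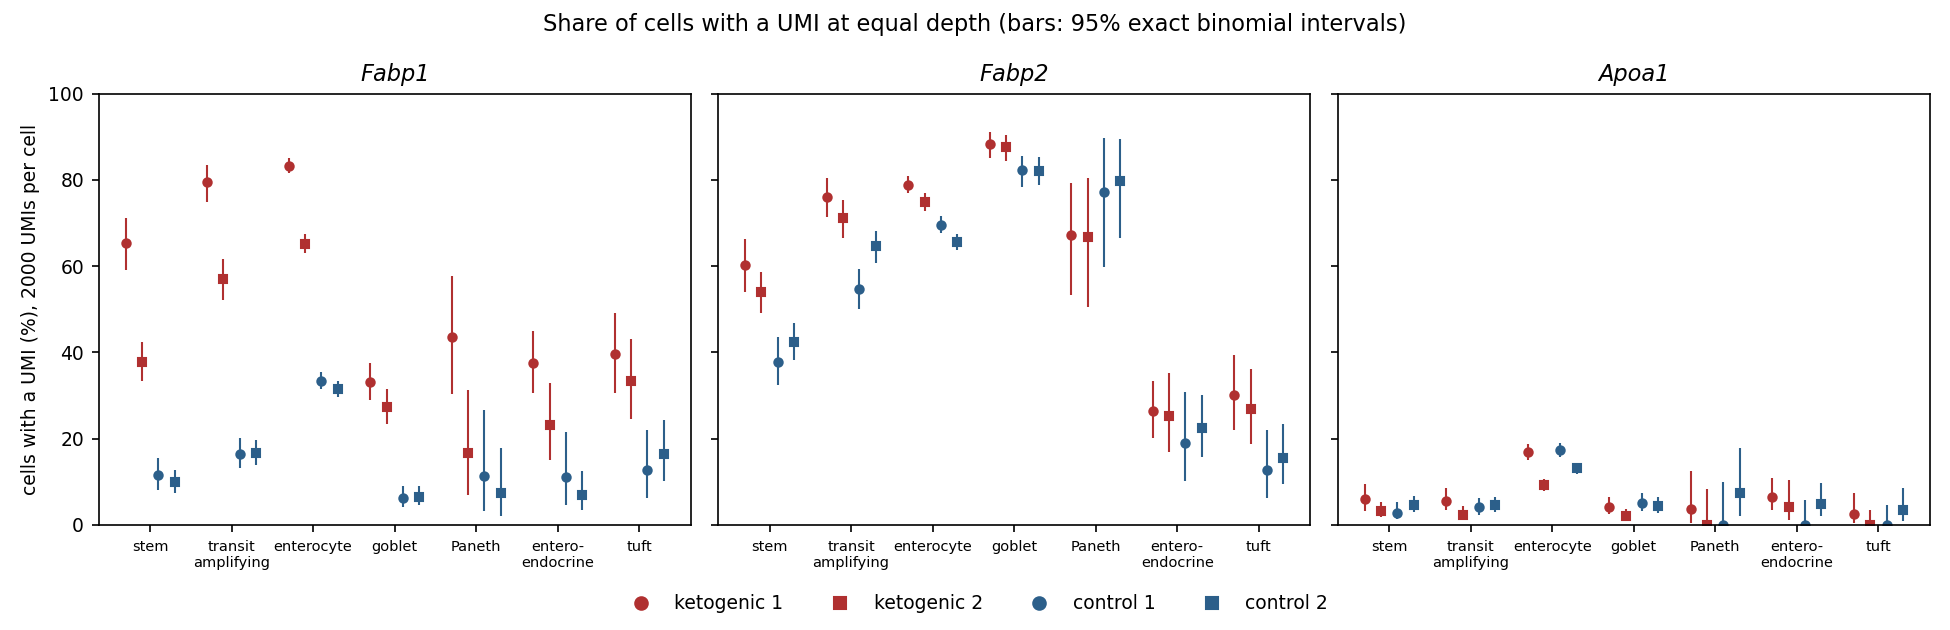
Share of cells with at least 1 UMI of Fabp1, Fabp2 or the enterocyte gene Apoa1 after thinning to 2000 UMIs per cell, by cell type and library, with 95% exact binomial intervals that cover counting error only. Ketogenic Fabp1 shares exceed control shares in every type, while Apoa1 shares stay under 20% and show no such split.

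As a second reading of free RNA, the level of Fabp1 in each type was divided by its level in enterocytes of the same library and set beside the same ratio for up to 10 enterocyte markers. RNA from enterocytes alone would bring all of their transcripts in at 1 ratio, so the lowest marker ratio is an upper limit on it. In stem cells the Fabp1 ratio was 0.114 and 0.146 in ketogenic libraries, with lowest marker ratios of 0.0726 and 0.0551 and medians of 0.1425 and 0.162. In control stem cells it was 0.0649 and 0.0705, with lowest marker ratios of 0.0623 and 0.0438 and medians of 0.198 and 0.1115. Fabp1 in stem cells thus lay between the lowest and the median marker in all 4 libraries, and the lowest marker there rested on 25 and 23 UMIs in ketogenic libraries and on 11 and 61 UMIs in control libraries.

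In transit amplifying cells the ratio was 0.301 and 0.322 in ketogenic libraries, above the marker medians of 0.210 and 0.246. In control libraries it was 0.140 and 0.152, below the medians of 0.1845 and 0.190. The lowest marker ratios there were 0.0521 and 0.0367 in ketogenic and 0.0807 and 0.0305 in control libraries. Fabp1 thus lay above the lowest marker in every library. That marker rested on 81 and 1 UMIs in ketogenic and 36 and 2 UMIs in control libraries. In goblet cells the Fabp1 ratio was 0.0552 and 0.0797 in ketogenic libraries, with lowest marker ratios of 0.0274 and 0.0368 and medians of 0.0646 and 0.0825. In control goblet cells it was 0.0678 and 0.0535, with lowest marker ratios of 0.0285 and 0 and medians of 0.0761 and 0.0565. Goblet cells too lay between the lowest and the median marker in all 4 libraries, so this reading does not set stem cells apart from goblet cells. The lowest goblet marker rested on 12 and 1 UMIs in ketogenic libraries and on 12 and 0 UMIs in control libraries. In the second library of each diet it is therefore a weak limit. The part of free RNA in the Fabp1 levels was not tested further.

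**Figure D4:**
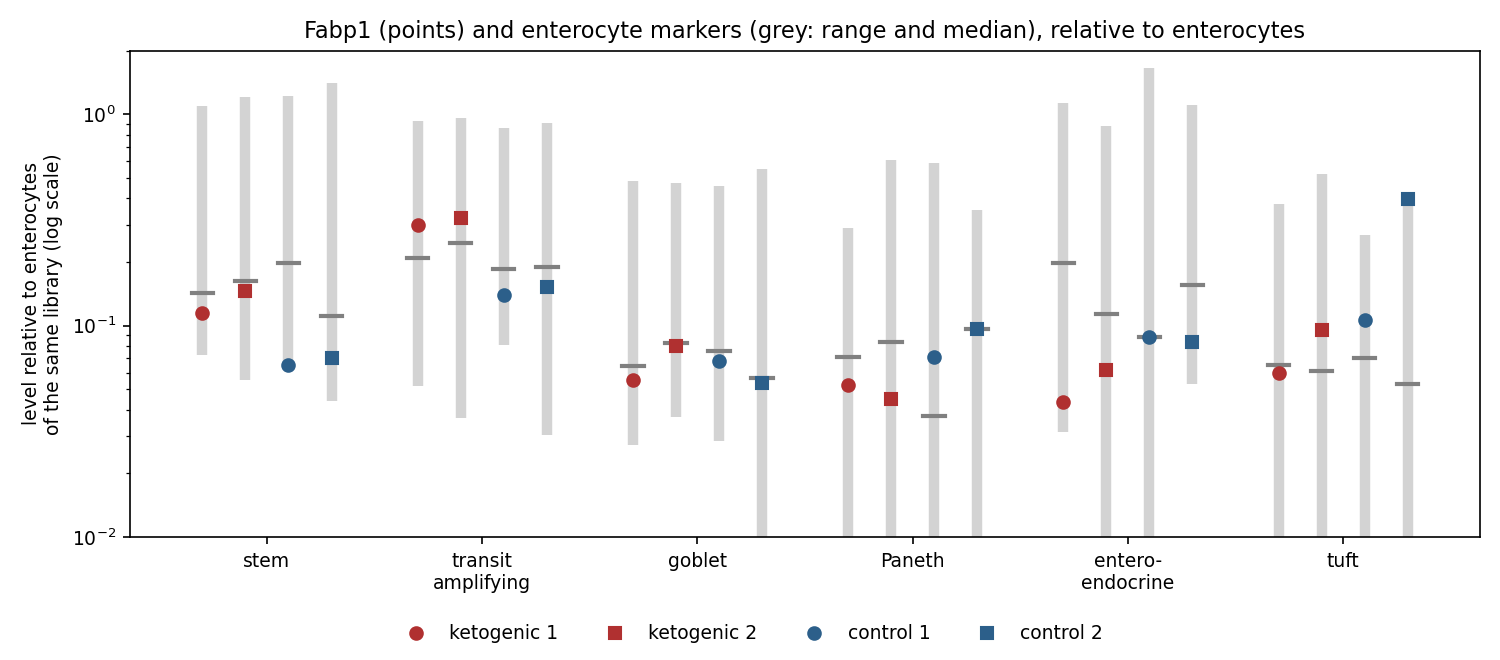
Level of Fabp1 relative to enterocytes of the same library (points, log scale), by cell type and library, with grey bars for the range and grey ticks for the median of the same ratio over up to 10 enterocyte markers (bars cut at 0.01, since some markers were at 0). In stem and transit amplifying cells the ketogenic points lie above the control points, and in stem and goblet cells all 4 points lie below the marker median.

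In cells with 0 UMIs of all 10 enterocyte markers, a subset chosen after seeing the data, Fabp1 also rose in 4 types. Stem cells of that kind held 913 and 296 CPM of Fabp1 in ketogenic libraries and 39.1 and 44.5 CPM in control libraries, a log2 fold change of 3.79 that was called. The change there was 3.98 in transit amplifying, 3.33 in goblet and 2.39 in enteroendocrine cells, all called, and 3.09 in Paneth and 1.01 in tuft cells, not called. In ketogenic enterocytes the 10 markers together summed to 615 to 991 CPM, below Fabp1 alone at 6562 and 3209 CPM. A cell without a marker UMI can thus still hold free Fabp1 RNA, so this subset does not part own RNA from free RNA. Summed over the 10 enterocyte markers, stem cells held 178.5 to 196 CPM in ketogenic libraries and 159 to 227 CPM in control libraries, so its ranges overlapped between the diets there.

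In enterocytes themselves the summed enterocyte markers were lower under the ketogenic diet, at 615 to 991 CPM against 1059 to 1115 CPM, and so were the 5 villus tip genes, at 95.4 to 96.5 CPM against 123.5 to 263 CPM. The sums do not speak for each marker. Thinned shares of enterocytes with an Alpi UMI overlapped, at 17.6% and 10.2% in ketogenic and 13.8% and 12.6% in control libraries. Those with an Apoa4 UMI also overlapped, at 10.7% and 4.39% against 7.33% and 8.96%. The 4 genes of the distal intestine held 189 CPM in both ketogenic libraries and 134 to 416 CPM in control libraries. Paneth markers summed to 199 to 361 CPM in ketogenic enterocytes and to 94.1 to 167 CPM in control enterocytes, and to 185 to 355 CPM against 101 to 123 CPM in transit amplifying cells. The part of these shifts in the results was not tested. In a split of enterocytes by Fabp6 alone, made after seeing the data, the change of Fabp1 was 2.55 in enterocytes with 0 Fabp6 UMIs (edgeR adjusted p = 0.0616) and 3.08 in those with a Fabp6 UMI (edgeR adjusted p = 6.93e-05).

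Fabp2 (chromosome 3, 122895072 to 122899506, plus strand) was spread over the epithelium in another way. Its level in goblet cells was 2079 and 1801 CPM in ketogenic libraries and 1485 and 1524 CPM in control libraries, and in enterocytes 2699 and 1763 CPM against 1050 and 1055 CPM. Goblet cells thus stood above enterocytes in 3 of 4 libraries, the exception being ketogenic library 1. Paneth cells held 1096 and 834 CPM in ketogenic libraries and 1082 and 1161 CPM in control libraries, and tuft cells, the lowest type by mean, 159 and 173 CPM against 80.7 and 164 CPM. The thinned share of goblet cells with a Fabp2 UMI was 88.2% and 87.7% in ketogenic libraries and 82.2% and 82.2% in control libraries, far above the tuft shares of 30.2% and 26.9% against 12.7% and 15.5%, and Paneth shares were 67.3% and 66.7% against 77.1% and 79.6%.

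The diet effect on Fabp2 was smaller than that on Fabp1. In stem cells Fabp2 rose, with 482 and 478 CPM in ketogenic libraries and 267 and 355 CPM in control libraries (log2 fold change 0.62 ± 0.13, edgeR adjusted p = 0.0323). It also rose in transit amplifying cells, with 1054 and 903 CPM against 551 and 627 CPM (0.75 ± 0.12, edgeR adjusted p = 0.00915). In both types the 2 ketogenic libraries were close together and above both control libraries. The stem call was lost without control library 1 (0.42), without ketogenic library 1 (0.60), with cells under 20% mitochondrial UMIs (0.50) and without the 5% of cells with the most UMIs (0.63), and the transit amplifying call was lost without ketogenic library 1 (0.60).

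In enterocytes the Fabp2 change was larger in size, at 1.10 ± 0.22, and not called (edgeR adjusted p = 0.147), with ketogenic library 1 well above the others, and 5 of 12 alternatives called it. In goblet cells the change was 0.36 ± 0.10 (edgeR adjusted p = 0.173), in enteroendocrine cells 0.65 ± 0.18, in Paneth cells 0.27 ± 0.23 and in tuft cells 0.38 ± 0.24, none of them called. The Paneth value is positive on the TMM scale only, since the mean CPM on plain totals was 965 in ketogenic and 1121 in control Paneth cells. Tested as a difference, the Fabp2 effect was smaller than that of enterocytes by -0.68 ± 0.11 in goblet cells (edgeR adjusted p = 0.00406, with 0.61% of genes called) and by -0.86 ± 0.19 in Paneth cells (edgeR adjusted p = 0.00384, with 0.344% of genes called). Relative to enterocytes of the same library, Fabp2 in Paneth cells stood at 0.406 and 0.473 in ketogenic libraries and at 1.03 and 1.10 in control libraries. The 7 goblet markers summed to 57000 to 76110 CPM in ketogenic and 70710 to 98480 CPM in control Paneth cells. Goblet cells themselves held 72600 to 84960 CPM in ketogenic and 74730 to 79300 CPM in control libraries. The part of cell make-up in the Paneth difference was not tested. The goblet difference was lost without control library 1 (-0.73), control library 2 (-0.63) or ketogenic library 1 (-0.46), and the Paneth difference without ketogenic library 1 (-0.86) or ketogenic library 2 (-0.90).

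Cd36 (chromosome 5, 17781690 to 17888801, minus strand), the surface receptor, was at the edge of detection. Enterocytes held 56 and 32 Cd36 UMIs in ketogenic libraries and 17 and 19 in control libraries, which is 3.75 and 1.95 CPM against 0.936 and 0.976 CPM. Both ketogenic libraries were above both control libraries, and the log2 fold change of 1.57 ± 0.42 was not called (edgeR adjusted p = 0.281). A Cd36 UMI was seen in 2.80% and 1.67% of ketogenic enterocytes and in 0.789% and 0.650% of control enterocytes. Stem, transit amplifying and goblet cells held 0 to 3 UMIs per library. Paneth, enteroendocrine and tuft cells held 0 UMIs in all 4 libraries, which at this depth allows levels of up to 2.43 to 10.4 CPM, taking 3 counts as the limit. In ketogenic library 1 the limits of 2.43 CPM in enteroendocrine and 3.43 CPM in tuft cells were below the enterocyte level. In the other cases the limit was above the enterocyte level of the same library, and a difference was not detectable at this depth. Cd36 is also made by blood vessels, and 4 endothelial markers summed to 0.426 to 0.535 CPM in ketogenic enterocytes and 0.154 to 0.441 CPM in control enterocytes, with Cdh5 at 0.

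The fatty acid transport proteins differed in the cell type of their highest level. Slc27a1 (chromosome 8, 71568882 to 71587302, plus strand) was highest in tuft cells in all 4 libraries, at 33.2 and 37.3 CPM in ketogenic libraries and 39.5 and 36.7 CPM in control libraries, and lowest by mean in enterocytes, at 10.97 and 9.99 CPM against 4.30 and 6.78 CPM. Its tuft levels overlapped between diets (-0.13 ± 0.26), while its enterocyte and transit amplifying levels did not. The changes of 0.92 ± 0.24 in enterocytes and 0.96 ± 0.32 in transit amplifying cells (edgeR adjusted p = 0.276 and 0.320) were called only in the fits with no filter on low counts (0.91 and 0.94) and without control library 2 (1.28 and 1.70), among the alternatives run.

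Slc27a2 (chromosome 2, 126552407 to 126588243, plus strand), a transport protein that also activates very long-chain fatty acids, was highest in stem cells in all 4 libraries. Stem cells held 59.0 and 67.0 CPM in ketogenic libraries and 81.7 and 58.0 CPM in control libraries, so that the diets overlapped (-0.10 ± 0.15). Transit amplifying cells held 50.5 and 50.7 CPM against 36.4 and 41.5 CPM and enterocytes 51.6 and 44.5 CPM against 35.7 and 40.9 CPM, with ketogenic libraries higher and no call (0.39 ± 0.13 and 0.33 ± 0.14, edgeR adjusted p = 0.313 and 0.506). The 4 secretory types held from 8.37 to 27.0 CPM.

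Slc27a4 (chromosome 2, 29802634 to 29817522, plus strand), a transport protein of the absorptive epithelium, was highest by mean in enterocytes. Enterocytes held 47.1 and 29.7 CPM in ketogenic libraries and 34.0 and 22.4 CPM in control libraries, and the groups overlapped (0.46 ± 0.27, edgeR adjusted p = 0.613). In transit amplifying cells it held 18.6 and 15.7 CPM against 12.9 and 9.57 CPM, without overlap and without a call (0.65 ± 0.21, edgeR adjusted p = 0.316). In enteroendocrine cells the order was turned, with 17.8 and 16.7 CPM in ketogenic libraries and 26.3 and 24.0 CPM in control libraries (-0.50 ± 0.38), on 10 to 22 UMIs per library.

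**Figure D5:**
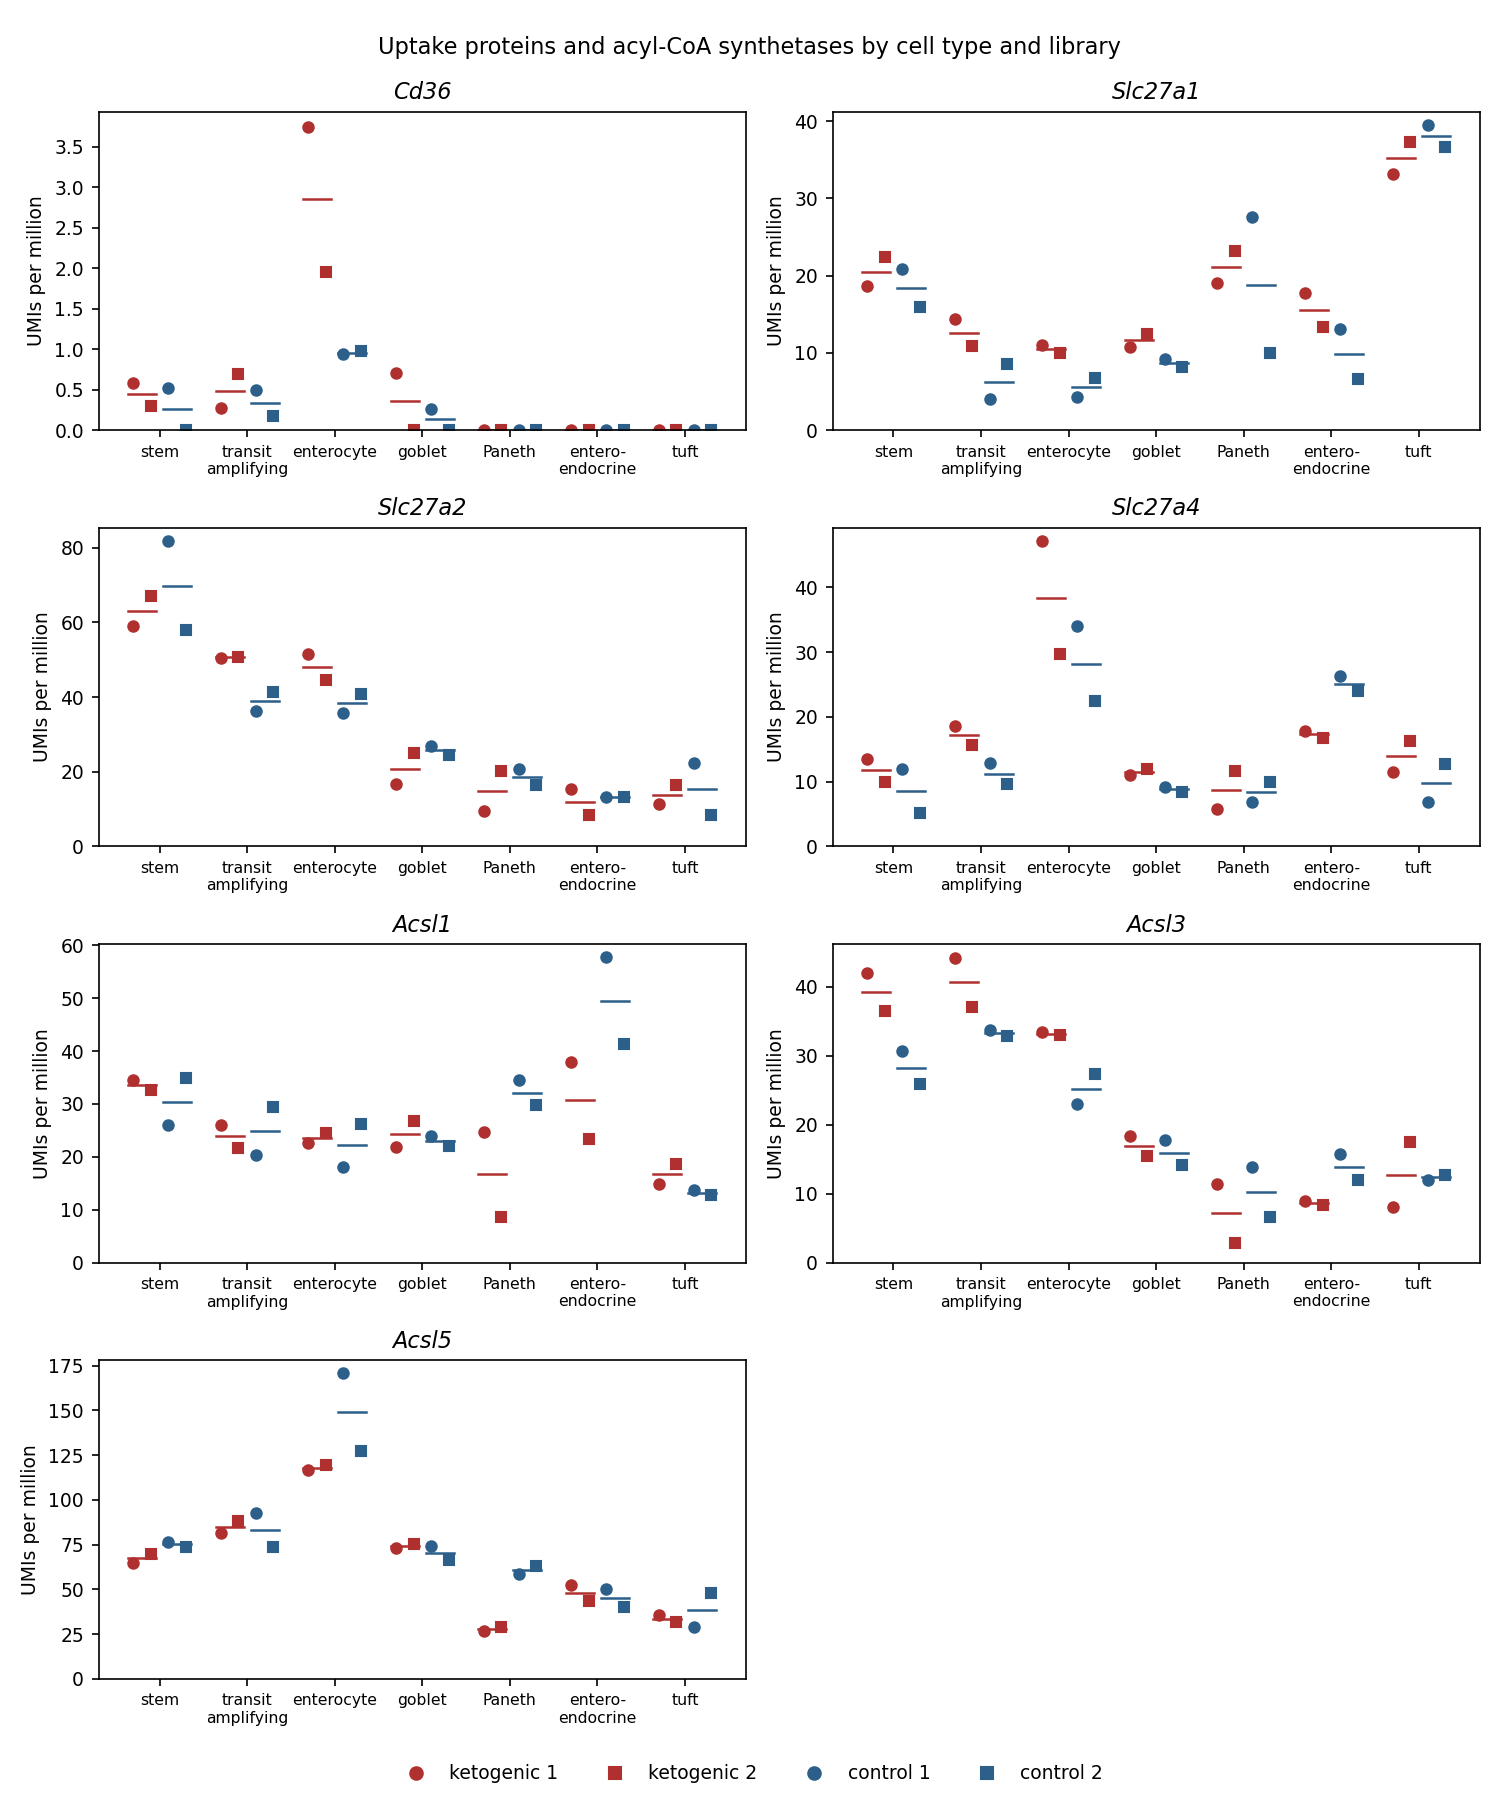
Levels of the 4 uptake genes and 3 acyl-CoA synthetases in CPM of the same library and cell type, by cell type and library, with lines at the mean of each diet and an axis of its own for each gene. Slc27a1 peaks in tuft cells, Slc27a2 in stem cells, and Slc27a4 and Acsl5 in enterocytes, and in none of the panels do the diets part as they do for Fabp1.

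Of the acyl-CoA synthetases, Acsl5 (chromosome 19, 55251938 to 55297720, plus strand), a mitochondrial and endoplasmic reticulum enzyme of the enterocyte, was highest in enterocytes in all 4 libraries. They held 116 and 119 CPM in ketogenic libraries and 171 and 127 CPM in control libraries. Both ketogenic libraries lay below both control libraries, with control library 1 standing out, the library whose enterocytes were also high in Fabp6 and Krt20. The change of -0.33 ± 0.14 was not called (edgeR adjusted p = 0.511), was -0.54 and called without control library 2, and was -0.12 without control library 1. Among enterocytes with a Fabp6 UMI it was 0.08. Acsl5 in Paneth cells stood at 26.6 and 29.0 CPM in ketogenic libraries and at 58.8 and 62.8 CPM in control libraries (-0.65 ± 0.35, edgeR adjusted p = 0.723), on 10 to 19 UMIs per library.

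Acsl3 (chromosome 1, 78657825 to 78707743, plus strand), the synthetase of lipid droplets, was highest in transit amplifying cells in all 4 libraries, with 44.1 and 37.1 CPM in ketogenic libraries and 33.6 and 32.8 CPM in control libraries. In stem cells it held 42.0 and 36.5 CPM against 30.7 and 25.9 CPM and in enterocytes 33.4 and 33.0 CPM against 23.0 and 27.3 CPM. Ketogenic libraries were higher in all 3 types without a call, with changes of 0.31 ± 0.14, 0.47 ± 0.18 and 0.40 ± 0.13 in that order of types (edgeR adjusted p = 0.539, 0.562 and 0.388). The enterocyte change was 0.52 and called without control library 2.

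Acsl1 (chromosome 8, 46471037 to 46536051, plus strand), the main synthetase of fat and heart muscle, was the most even of the 3 across cell types. It held 22.6 and 24.5 CPM in ketogenic enterocytes and 18.1 and 26.3 CPM in control enterocytes, and 34.5 and 32.6 CPM in ketogenic stem cells against 26.0 and 34.9 CPM in control stem cells. The groups overlapped in both types, with changes of 0.09 ± 0.19 and 0.10 ± 0.19. Its highest type by mean was the enteroendocrine, with 38.0 and 23.4 CPM in ketogenic libraries and 57.8 and 41.3 CPM in control libraries (-0.52 ± 0.30, edgeR adjusted p = 1.00). A few cells carried part of that rank, with 51.1% and 42.9% of the enteroendocrine Acsl1 UMIs in 5 cells in ketogenic libraries and 90.9% and 48.4% in control libraries. An Acsl1 UMI was seen in 14.5% and 13.7% of ketogenic and 11.1% and 14.2% of control enteroendocrine cells, and in 19.7% and 20.2% of ketogenic and 14.4% and 18.5% of control stem cells, without thinning.

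The genes whose levels ran most like those of each member were found by Pearson's r of log2(CPM + 1) over the 28 sums of 7 types and 4 libraries, among 5165 genes with a mean of at least 20 CPM. These sums share libraries and cell types, so r is a description. Fabp1 was nearest to Etfb (r = 0.77), an electron carrier of fat oxidation, and Cpt1a (0.75), which admits long-chain fatty acids to mitochondria, and Fabp2 to S100a16 and Phgr1 (both 0.92). Cd36 was nearest to Ces2e and Mal2 (0.79 and 0.78), Slc27a1 to Pim3 and Sox9 (0.86 and 0.78), Slc27a2 to 2210407C18Rik and Igfbp4 (0.94 and 0.93), and Slc27a4 to Rbp2 and Mdh2 (0.85 and 0.78). Acsl1 was nearest to Tspan12 and Ski (0.81 and 0.76), Acsl3 to Cd3eap and BC003965 (0.91 and 0.90), and Acsl5 to Mal2 and Prdx1 (0.96 and 0.94). Within the family r was 0.37 between Fabp1 and Fabp2, 0.78 between Slc27a2 and Acsl3 and -0.68 between Slc27a1 and Acsl5.

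A wider list of 34 other genes of the same steps, among them the other Fabp, Slc27a and Acsl genes, short and medium chain synthetases and acyl-CoA binding proteins, held no gene called by edgeR in any cell type. It had 19 members tested in enterocytes, 16 each in stem, transit amplifying and goblet cells, 11 in enteroendocrine, 10 in tuft and 5 in Paneth cells. At an unadjusted p under 0.05 it held 1 higher and 3 lower in enterocytes (9.91% of all genes tested passed that p), 2 higher and 3 lower in transit amplifying cells (9.21%), 1 higher and 1 lower in stem cells (6.42%) and 2 higher in goblet cells (8.96%). It held 1 lower in Paneth cells (7.68%), 2 lower in tuft cells (5.34%) and 0 in enteroendocrine cells (4.61%). DESeq2 called 1 of them, Acbd4, an acyl-CoA binding protein, named after its values were seen. Acbd4 stood at 28.4 and 28.4 CPM in ketogenic enterocytes and at 52.9 and 38.1 CPM in control enterocytes (DESeq2 log2 fold change -0.68 ± 0.20, adjusted p = 0.0453), with control library 1 the highest of the 4. By edgeR its change was -0.67 ± 0.16 (adjusted p = 0.227). The list's median log2 fold change was 0.04 in stem cells, 0.00 in transit amplifying cells and -0.01 in enterocytes, close to that of all genes tested. It was 0.04 in goblet, -0.02 in enteroendocrine and -0.07 in tuft cells, and -0.29 in Paneth cells, where 5 genes were tested.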

How the data were processed

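Small intestines were dissociated and processed with 10x Single Cell 3' v2 chemistry, per the labels' protocols. The authors deposited unnormalized UMI counts of every gene and cell and a table that names each cell's library and cell type. Per the submitters' processing notes, Cell Ranger 2.1.0 and mm10 were used. The sources used here do not give the cell filters, doublet treatment, type assignment or strand use in counting. All deposited cells were used, no doublet caller was run, and leaving out the 5% of cells with the most UMIs in each library and type stands in for one. The 9 members and all lists, tests and alternatives were chosen with earlier results of these data known.

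Counts were summed per library and type and tested with edgeR 4.0.16 in R 4.3.3 (quasi-likelihood, TMM, filterByExpr by diet, Benjamini-Hochberg over all genes tested), ketogenic over control. Members under that filter, such as Cd36 outside enterocytes, were not tested. SE is the log2 fold change over the root of F, and CPM uses plain totals. Library totals ran from 27316428 to 34106639 UMIs, and intervals and limits cover counting error only. An exact two-sided permutation test cannot go below p = 0.33 here and was not used. Alternatives were RLE size factors, no filter, DESeq2 1.42.0, a replicate block, leaving out each library, cells under 20% mitochondrial UMIs, an equal mix of types in all cells, and, added after seeing the data, cells without enterocyte markers, enterocytes split by Fabp6 and the leave-out fits of the differences. The tests recovered known changes in counts simulated from the kind of model that the tests assume. For the differences between types the simulation had a fixed spread for all genes and no library effect. It therefore does not bear on the p-values of these data.

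Named genes are the members, called genes of the wider list (at most 4 by type) and for each member the 2 genes nearest by Pearson's r. Replicate libraries were not copies, with a chi-square of 17.2 times its degrees of freedom in the ketogenic and 22.8 times in the control pair. Positions are from GENCODE M21. Fabp2, Slc27a2, Acsl1, Acsl3 and Acsl5 overlap other annotated genes there, so part of their UMIs may be uncertain. The marker Trac was not among the gene names and was left out. Markers of T cells, B cells, myeloid cells, blood vessels and fibroblasts summed to at most 26.6 CPM in any type and library.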

Additional observations from a re-analysis of the deposited data

Results flagged for a closer look

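These 5 results were picked out because the diet effect differed between a cell type and enterocytes by a test of the difference itself (edgeR, 8 sums, library as a block), each value being the effect in the type minus that in enterocytes on the log2 scale. Fabp1 had a difference of 0.94 in stem cells (adjusted p = 4.05e-05) and of 1.11 in transit amplifying cells (adjusted p = 1.99e-08). Fabp1 had a difference of -1.73 in tuft cells (adjusted p = 1.30e-12), with 79.8% of the tuft Fabp1 UMIs of control library 2 in 5 cells. Fabp2 had a difference of -0.68 in goblet cells (adjusted p = 0.00406) and of -0.86 in Paneth cells (adjusted p = 0.00384). The part of doublets, of free enterocyte RNA and, for Paneth cells, of cell make-up in these differences was not tested.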

How the results depend on the processing

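With 2 libraries per diet, calls moved with the settings more than directions did. The count of members called in enterocytes, 0 as reported, was 1 with RLE size factors, cells under 20% mitochondrial UMIs or enterocytes with a Fabp6 UMI, 2 with DESeq2 and 4 with no filter. In all cells it was 0, against 3 with no filter, 2 with DESeq2 and 1 with an equal mix of types. In Paneth cells it was 0, against 1 with no filter or without the 5% of cells with the most UMIs. In stem cells it was 2, against 1 with cells under 20% mitochondrial UMIs or without the 5% of cells with the most UMIs. With DESeq2, 1.53% of all genes were called in enterocytes and 1.79% in all cells. For the other settings of this section the share of all genes called is not given. Their counts therefore describe the settings and are no result about the members.

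When 1 library was left out in turn, the number of members called moved, and counts are not given for want of a share of all genes. The Fabp1 change then ran from 3.04 to 3.77 in stem, 3.08 to 4.09 in transit amplifying and 1.92 to 3.05 in enterocytes. It ran from 2.34 to 2.89 in goblet, 1.41 to 2.94 in Paneth and 1.47 to 2.03 in enteroendocrine cells. In tuft cells it ran from 0.00 to 2.07 and in all cells from 1.88 to 2.94. On the same terms the Fabp1 difference from enterocytes ran from 0.71 to 1.15 in stem and 1.02 to 1.19 in transit amplifying cells. In tuft cells that difference ran from -2.45 to -0.51. The Fabp2 difference ran from -0.91 to -0.46 in goblet and -0.90 to -0.85 in Paneth cells. A lone library of a diet is assumed there to vary like the other 2.

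The replicate block used the library number as a term. The deviations of libraries with the same number correlated at -0.07 to 0.13, and with 2 pairs the numbers are not shown to pair them. With the replicate block, 1 member was called in enterocytes, 1 in Paneth cells and 1 in all cells, each time Fabp1 (2.49, 2.23 and 2.42 on the log2 scale), and other counts stayed as reported.

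Changes of sign befell effects not called in the fit reported. Acsl1 ran from -0.091 to 0.40 in stem, -0.31 to 0.27 in transit amplifying, -0.17 to 0.38 in enterocyte, -0.052 to 0.19 in goblet and -0.18 to 0.26 in all cells when 1 library was left out. On the same terms Acsl5 ran from -0.082 to 0.19 in transit amplifying, -0.020 to 0.28 in enteroendocrine and -0.55 to 0.19 in tuft cells, Acsl3 from -0.078 to 0.22 in goblet cells, Slc27a2 from -0.31 to 0.11 in stem and -0.69 to 0.67 in tuft cells, Slc27a4 from -0.050 to 1.11 in stem cells, and Fabp2 from -0.079 to 0.61 in Paneth and -0.012 to 1.03 in tuft cells. With cells under 20% mitochondrial UMIs the changes of Acsl1 in transit amplifying cells (0.029) and of Slc27a1 in tuft cells (0.074) turned, as did those of Acsl5 in transit amplifying cells (-0.028) and Slc27a1 in tuft cells (0.22) among cells without enterocyte markers. In enterocytes with a Fabp6 UMI, Acsl1 (-0.15) and Acsl5 (0.080) turned, and Acsl5 was called as lower (-0.54) without control library 2. Acsl5 in tuft cells without the 5% of cells with the most UMIs (0.12) and Acsl1 in all cells at an equal mix of types (-0.17) also turned. The cause of these changes was not tested.

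The count filter left 3 of the 9 members for testing in Paneth, 5 in enteroendocrine and 6 in tuft cells, and Cd36 was tested in enterocytes and all cells alone.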
